A study of Mus musculus with 2 samples.

Results

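The thyroid hormone transport and response genes *Thra*, *Thrb*, *Crym*, *Slco1c1*, *Dio2* and *Dio3* were taken by symbol, 6 of the 32285 genes counted. They were described over the cell types of embryonic mouse brain, dorsal telencephalon by the study's methods and brain hemispheres by the labels. Single cell RNA sequencing (scRNA-seq) was performed on mouse embryos at E14.5, with 2 samples, numbered 1 and 3 by their labels and each sequenced as a single 3' droplet library. Both samples were given as WT controls of the Eomes-Cre line, C57BL6/J in the study's methods, and the design text names EomesMllt3 control embryos. The labels do not say whether a WT embryo carried the Cre allele, there was no second genotype or treatment, and every comparison was therefore made between cell classes of these 2 libraries. The study asked what the DNA methyltransferase DNMT1 does in the development of SST+ cortical interneurons. Single cell data of C57BL6/J embryos served its prediction of how these interneurons signal to progenitors. The progenitors were radial glial cells (RGCs) and the intermediate progenitor cells (IPCs) they produce. These 6 genes were not central to the study.

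Thyroid hormone reaches the brain mainly as the prohormone thyroxine. SLCO1C1 (OATP1C1) is among the carriers that take it across membranes, the deiodinase DIO2 converts it to the active triiodothyronine, and DIO3 inactivates both forms. THRA and THRB are nuclear receptors that bind DNA with a retinoid X receptor, recruit corepressors without the hormone and coactivators with it. CRYM (mu-crystallin) binds triiodothyronine in the cytosol. In the brain DIO2 is known from glia, SLCO1C1 from glia and the vessel wall, and DIO3 and the receptors from neurons.

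The genes lie on 5 chromosomes of GRCm38.p6, the RefSeq form of the mm10 build that the submitters' processing notes name. *Thra* spans chr11:98740776-98769006, *Thrb* chr14:17659225-18040097, *Crym* chr7:120186380-120201989, *Slco1c1* chr6:141524354-141570177, *Dio2* chr12:90724552-90739038 and *Dio3* chr12:110279230-110281097. *Thrb* is the longest of them at 381 kb and *Dio3*, at 1.87 kb, the shortest. RefSeq promoter windows (250 bases before to 50 after a start, 300 in all) were held for *Slco1c1*, *Dio2*, *Dio3* and 2 starts of *Thrb*, which has 20 transcripts. They were searched on both strands for the thyroid hormone receptor half-site AGGTCA, for its direct repeat with 4 bases between (DR4), in which the first motif is contained, and for the cAMP response element TGACGTCA. The matches in windows of these genes are shown because *Thrb* encodes a receptor of that half-site and *Dio2* is known to respond to cAMP, with the motif in capitals.
Thrb upstream window, chr14:17660770-17660787, plus strand: gttgacAGGTCAagggaa
Dio2 start, chr12:90739120-90739139, minus strand: tctcaaTGACGTCAagatct
The *Thrb* half-site begins 184 bases before the start on which its window was built, which lies inside the gene's span, and 16.3% of the 32851 promoter windows hold such a half-site. The *Dio2* element begins 95 bases before its start, and 1.79% of the windows hold that element. The direct repeat was in 5 windows (0.0152%), none of them of these genes. A match describes letters in a window and was not tested as a binding site.

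Each captured RNA carries a unique molecular identifier (UMI), and levels are given as counts per 1e6 UMIs (CPM) over all cells of a class in 1 replicate. Replicate 1 held 64182006 UMIs over 6163 barcodes and replicate 3 held 93295807 over 8870, of which 5184 and 6952 cells were kept. They shared 23 barcodes, and 16 among the kept cells. Cells fell into 24 clusters, of which 22 were named as 10 classes by marker genes, each called "-like". Classes had from 26 to 3561 cells in a replicate, with 26 and 52 endothelial-like and 39 and 45 pericyte-like cells as the smallest classes. The microglia-like class had all 8 of its markers on but was led by *Pf4* and *Mrc1*, which are known from macrophages at the borders of the brain, so the name does not separate microglia from those cells. Median depth was 4545 and 4037.5 UMIs in MGE interneuron-like cells and at least 10138 in RGC-like, IPC-like and projection neuron-like cells. None of the 6 genes, nor the pathway genes below, was used for clustering. The labels give the tissue as brain hemispheres, and 15 of the 24 clusters were RGC-like, IPC-like or projection neuron-like by their markers.

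Over the kept cells *Thra* gave 37744 UMIs, *Thrb* 3438, *Crym* 1656, *Slco1c1* 720, *Dio2* 54 and *Dio3* 19. The 6 genes had different places: 82.8% of the *Thra* UMIs and 89.9% of the *Crym* UMIs came from projection neuron-like cells, 56.9% of the *Thrb* UMIs from IPC-like cells, and 50 of the 54 *Dio2* UMIs from RGC-like cells. Such shares also follow class size, since projection neuron-like cells held 33904223 and 39061002 UMIs of all genes, the most of any class. *Dio2* and *Dio3* did not pass the filter on low counts, so 4 of the 6 genes were tested.

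**Figure D1:**
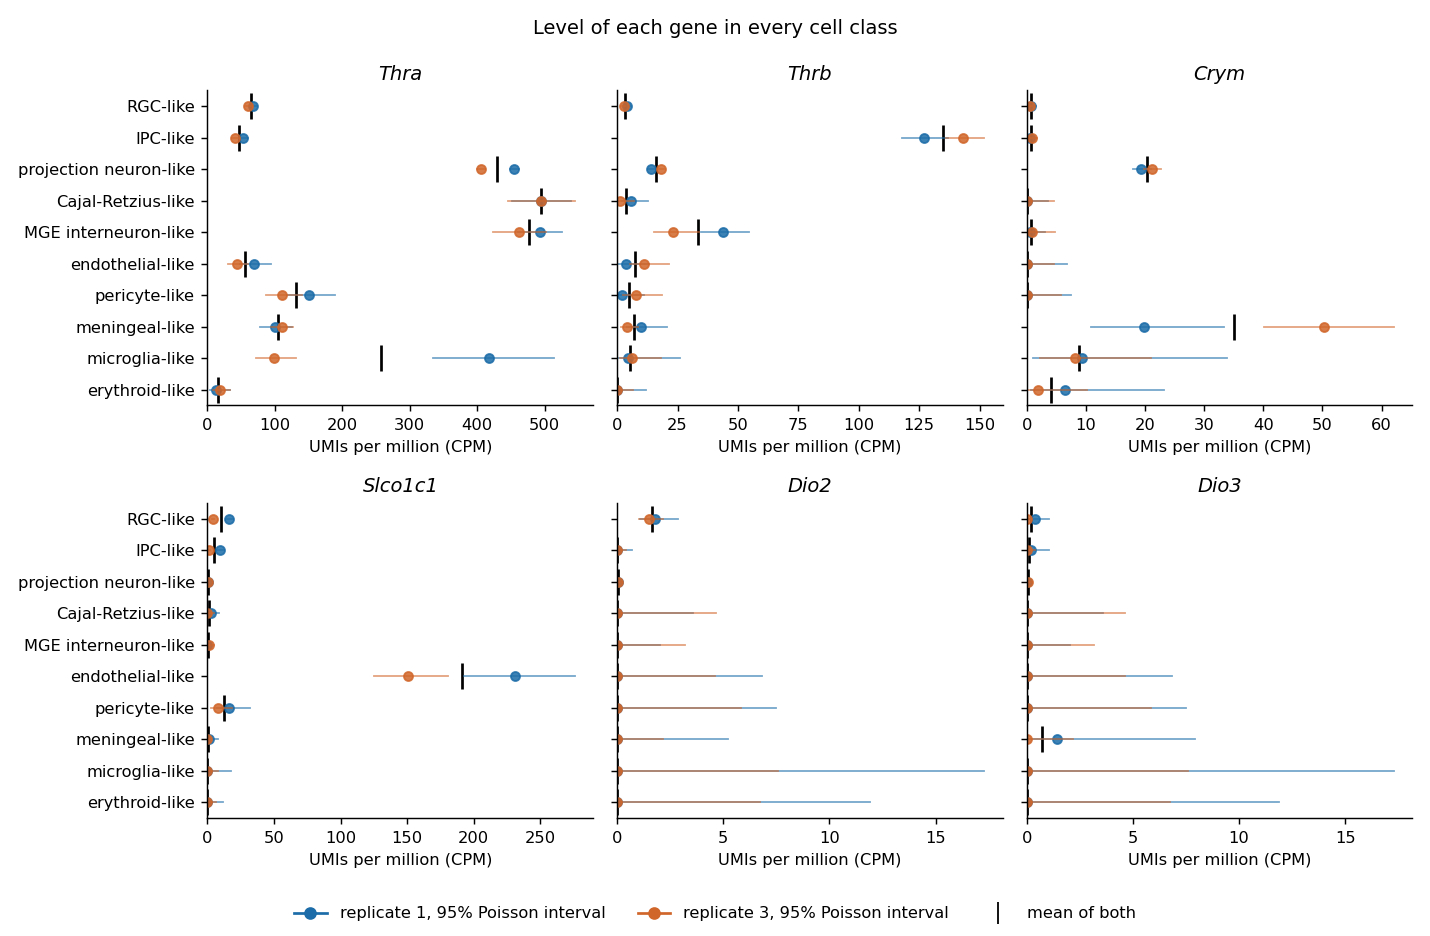
Level of the 6 genes in 10 cell classes, in CPM (x axis, a scale of its own for each gene). Points are the 2 replicates with their exact 95% Poisson interval and the black mark is the mean. *Thra* is high in 3 neuronal classes, *Thrb* in IPC-like cells, *Slco1c1* in endothelial-like cells.

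Summed UMIs of the classes were compared by the quasi-likelihood test of edgeR, with Benjamini-Hochberg adjustment over 12322 genes and a threshold of 0.05, on 2 sums per class. Of the 4 genes tested, 1 differed between IPC-like and RGC-like cells, where 31.1% of all genes did (13.7% higher, 17.4% lower in IPC-like cells). All 4 differed between projection neuron-like and IPC-like cells, against 40.9% of all genes (23.1% higher, 17.7% lower), and all 4 between projection neuron-like and RGC-like cells, against 56.2% (30.4% higher, 25.8% lower). Against projection neuron-like cells, 2 differed in MGE interneuron-like cells (28.8% of all genes, 11.9% higher and 16.9% lower) and 2 in Cajal-Retzius-like cells (20.6%, 9.02% higher and 11.5% lower). Against RGC-like cells, 1 differed in endothelial-like (42.6%, 21.0% of all genes being higher), 1 in meningeal-like (46.5%, 24.5% higher) and 1 in pericyte-like cells (37.7%, 19.3% higher). Classes come from clustering the same cells, so such shares of all genes are high by construction. The p-values rest only on the spread between sums of these 2 samples, estimated over all 10 classes in 1 fit. That fit treats the 20 sums as independent although they come from 2 libraries. The labels do not state outright that the 2 samples are separate embryos or litters.

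**Figure D2:**
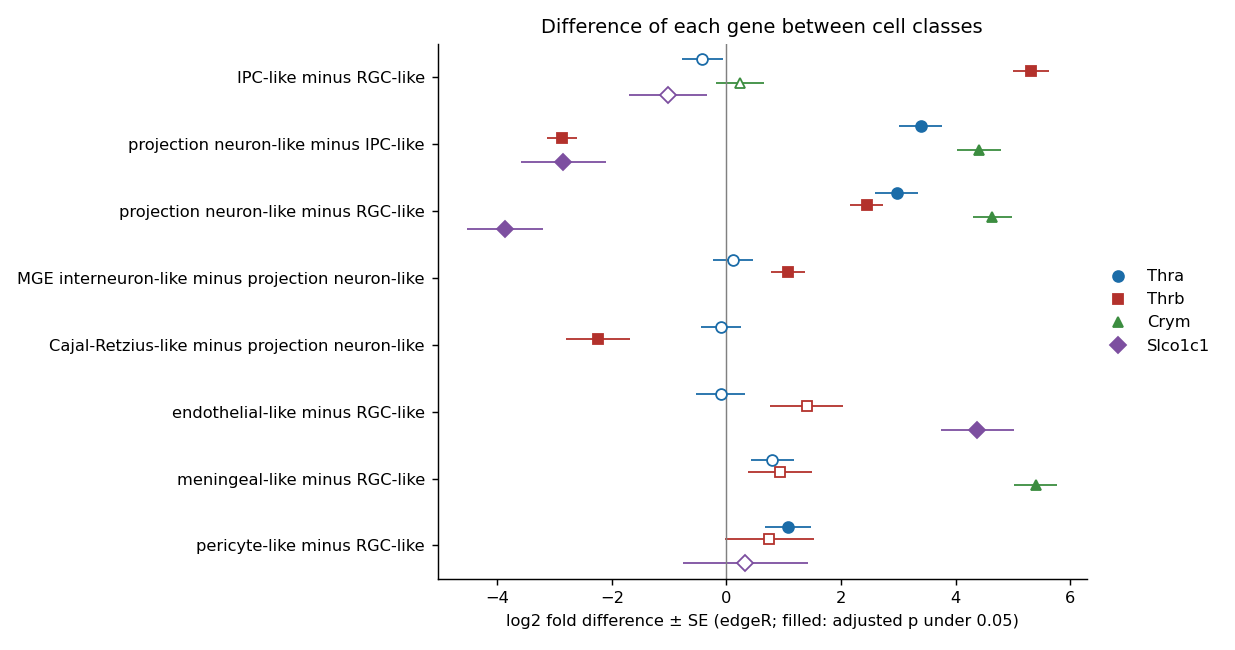
Log2 fold difference (x axis, ± SE, edgeR) of the 4 tested genes in 8 comparisons of cell classes, 2 sums per class. Filled symbols passed an adjusted p of 0.05, and genes with 3 or fewer UMIs in a class are not drawn. *Thrb* is higher and *Thra* is not called in IPC-like against RGC-like cells, and *Thra* is higher and *Thrb* lower in projection neuron-like against IPC-like cells.

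*Thra*, which encodes the receptor THRA, was high in neurons and low in progenitors. Its level was 67.6 CPM in replicate 1 and 60.8 in replicate 3 for RGC-like cells, and 53.1 and 40.2 for IPC-like cells. In projection neuron-like cells it was 455 and 405 CPM, in MGE interneuron-like cells 493 and 462, and in Cajal-Retzius-like cells 494 in both. Every neuronal sum was above every progenitor sum. The log2 fold difference was 2.97 ± 0.37 (SE, adjusted p = 2.2e-06), or 2.27 with doublets kept, for projection neuron-like against RGC-like cells and 3.39 ± 0.38 (adjusted p = 1.3e-06) against IPC-like cells. IPC-like cells were 0.42 ± 0.36 lower than RGC-like cells, which did not pass (adjusted p = 0.42), although the replicates of both classes did not overlap. That difference passed with predicted doublets kept (-1.24, adjusted p = 0.012) and had the other sign with coarser clusters (0.20, adjusted p = 0.67).

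Neither of the 2 comparisons between neuronal classes passed for *Thra*. MGE interneuron-like cells were 0.11 ± 0.35 above projection neuron-like cells (adjusted p = 0.84), and Cajal-Retzius-like cells 0.09 ± 0.35 below (adjusted p = 0.89) with TMM scaling and 0.20 above with library sizes only. After each cell was thinned to 3000 UMIs, 64.3% of projection neuron-like cells in replicate 1 and 60.4% in replicate 3 had a *Thra* UMI (89.9% and 85.6% unthinned). For RGC-like cells the thinned shares were 19.6% and 17.1%, and in IPC-like cells 13.6% and 10.6%. Erythroid-like cells had 4.44% and 6.45%, at levels of 12.9 and 18.3 CPM from 4 and 10 UMIs. Whether these UMIs were their own RNA or carried over from other cells was not tested. The Wilson intervals of the erythroid-like shares, 1.23% to 14.8% and 2.54% to 15.4%, overlapped those of IPC-like cells (10.8% to 17.0% and 8.68% to 12.9%), whereas those of projection neuron-like cells did not. By CPM, which uses all UMIs, the exact Poisson intervals did not overlap, with 47.1 to 59.7 and 36.2 to 44.6 in IPC-like against 3.5 to 32.9 and 8.77 to 33.6 in erythroid-like cells. The 8 erythroid markers took 890096 and 879017 CPM of the erythroid-like sums, which lowers the level and the thinned share of any other gene there. The separation by CPM is therefore over all UMIs, and no comparison over the other UMIs was made. Median depth before thinning was 10834 and 10138 UMIs in IPC-like and 4647 and 3277 in erythroid-like cells.

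Outside the neural classes *Thra* was 150.3 and 111 CPM in pericyte-like, 99.4 and 109.9 in meningeal-like and 68.5 and 43.7 in endothelial-like cells. Pericyte-like cells were 1.08 ± 0.40 above RGC-like cells (adjusted p = 0.04), a call lost with doublets kept (0.24, adjusted p = 0.63). Meningeal-like cells were 0.80 ± 0.38 above RGC-like cells, with an adjusted p of 0.094. The adjusted p was 0.04 with the replicate as a block, and from 7.1e-04 to 0.019 in 4 other alternatives (no filter on low counts, only the neural classes and the compared, strict or no cell filter), while with doublets kept the difference was 0.05 (adjusted p = 0.92). In the microglia-like class, led by macrophage genes, the replicates lay far apart, at 418 and 98.6 CPM. Summed projection neuron markers were 742 CPM there in replicate 1 and 439.6 in replicate 3, with all 8 markers above 0 in both. Erythroid-like cells had 61.1 and 64.0 CPM, over sums made mostly of erythroid marker UMIs. In microglia-like cells summed erythroid markers were 55796 and 13082 CPM. The part of either in the *Thra* level was not tested. *Thra* shares its end with *Nr1d1*, a clock repressor encoded on the other strand, whose level was from 0 to 1.98 CPM over all class sums. Whether counting used the strand is not given in the sources used here, and 3' UMIs do not separate the receptor's isoforms.

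*Thrb*, the second receptor gene, had a different order. Its level was 127 CPM in replicate 1 and 143 in replicate 3 for IPC-like cells, the transit-amplifying daughters of RGCs. RGC-like cells had 3.91 and 2.67 CPM from 39 and 56 UMIs, and projection neuron-like cells had 14 and 18.2. IPC-like sums stood above all others. The difference from RGC-like cells was 5.32 ± 0.31 (log2, adjusted p = 6.5e-09), or 4.19 with doublets kept, and projection neuron-like cells were then 2.87 ± 0.26 lower than IPC-like cells (adjusted p = 1.4e-07).

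Projection neuron-like cells stayed 2.45 ± 0.29 above RGC-like cells in *Thrb* (adjusted p = 1.4e-06), but with doublets kept the difference was 0.71 (adjusted p = 0.056). MGE interneuron-like cells had 43.8 and 23.3 CPM, 1.07 ± 0.30 above projection neuron-like cells (adjusted p = 0.013). That value rested on replicate 1, since without it the difference was 0.31. Summed erythroid markers were 4764 CPM in replicate 1 and 11369 in replicate 3 of this class, and their part in the value was not tested. Cajal-Retzius-like cells, the early-born reelin neurons of the surface, had 5.84 and 1.26 CPM from 6 and 1 UMIs, 2.25 ± 0.56 below projection neuron-like cells (adjusted p = 0.0078), or 3.86 below without replicate 1, 1.38 below without replicate 3 and 0.84 below, without a call, when doublets were kept (adjusted p = 0.35).

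Even in IPC-like cells *Thrb* was found in a minority. At 3000 UMIs per cell 23.7% (95% Wilson interval 20.1 to 27.8) of IPC-like cells in replicate 1 and 25.8% (22.9 to 28.9) in replicate 3 had a UMI, against 39.0% and 45.1% unthinned, with up to 28 UMIs in 1 cell. The thinned share was 0.838% and 0.741% in RGC-like cells. Among projection neuron-like cells it was 3.81% and 4.58%. No erythroid-like cell had a *Thrb* UMI, 0 of 45 and 0 of 62 at this depth, which allows up to 7.87% and 5.83% of cells with a UMI by the Wilson interval. The IPC-like shares were above those limits and the RGC-like and projection neuron-like shares were not. By CPM, which uses all UMIs, a count of 0 allows up to 11.9 and 6.75 CPM in erythroid-like cells. The IPC-like and projection neuron-like levels were above both of these limits and the RGC-like levels were not. The 8 erythroid markers took 890096 and 879017 CPM of the erythroid-like sums, so few UMIs were left for other genes. Both kinds of limit are over all UMIs and would be higher over the other UMIs alone, a comparison that was not made. The intervals cover counting error only.

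Within the 2 IPC-like clusters *Thrb* was 151 and 145 CPM in the larger cluster 2 and 69.0 and 138 in cluster 14, which was led by mitotic genes. The replicates of the cycling cluster were far enough apart that its mean, 103 ± 48.7 (SD, n = 2), could not be separated from 148 ± 4.18 in cluster 2. *Thrb* was itself among the 10 leading genes of cluster 2. In the 4 RGC-like clusters it ranged from 0 to 7.03 CPM.

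**Figure D3:**
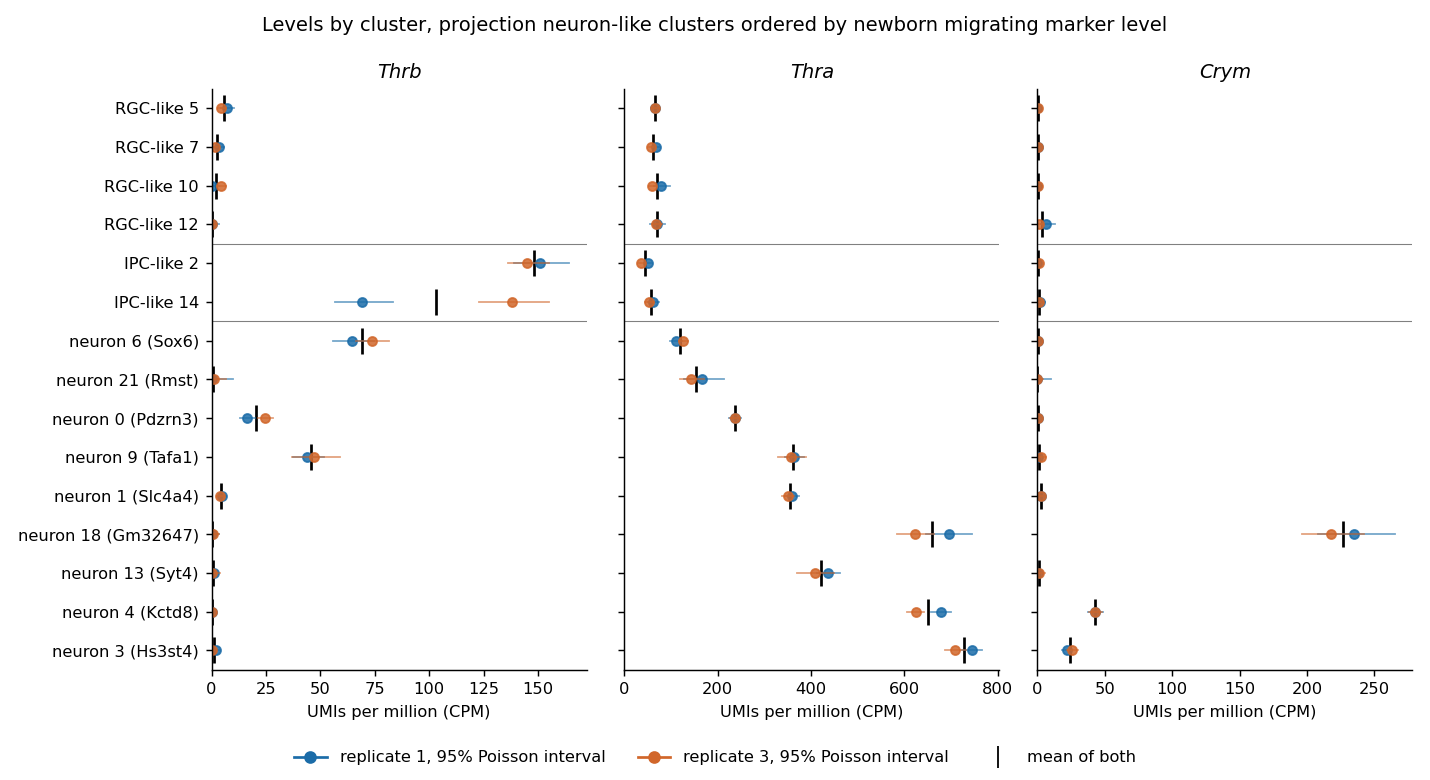
Levels of *Thrb*, *Thra* and *Crym* (x axis, CPM) in RGC-like, IPC-like and projection neuron-like clusters. The latter are ordered from top to bottom by falling level of newborn migrating neuron markers, points are replicates with exact 95% Poisson intervals, and the gene in brackets led the cluster. *Thra* is lowest in neuron cluster 6 and highest in cluster 3, *Thrb* is highest in the IPC-like clusters and near 0 in the lower clusters, and *Crym* peaks in cluster 18.

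The 9 projection neuron-like clusters differed in all 3 genes that were tested among them, *Thra* (edgeR F test over clusters, adjusted p = 2.6e-10), *Thrb* (4.0e-10) and *Crym* (7.5e-12), where 56.8% of 13701 genes did. *Thra* was 110.1 and 126 CPM in cluster 6, which led the 9 clusters in newborn migrating neuron markers (6353 CPM summed) and had *Sox6*, *Eomes* and *Kif26b* as leading genes. It was 167 and 142 CPM in cluster 21, 236 and 237 in cluster 0 (*Pdzrn3*, *Ndst3*, *Lrp1b*) and between 350.1 and 436 in clusters 1, 9 and 13. The top levels were 745 and 709 CPM in cluster 3 (*Hs3st4*, *Dpp10*, *Pdzd2*), 695 and 623 in cluster 18 and 678 and 625 in cluster 4. Cluster 3 held the highest corticothalamic marker sum, 5225 CPM, and the lowest sum of newborn markers, 67.7 CPM.

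*Thrb* had its highest levels in clusters with low or middle *Thra* levels. Cluster 6 had 64.6 and 73.6 CPM and cluster 9 (*Tafa1*, *Tafa2*, *Thsd7a*) 44.0 and 47.1. Cluster 0 had 16.3 and 24.7 CPM and cluster 1 (led by *Slc4a4*) 4.67 and 3.91. Clusters 3, 4, 13, 18 and 21 had from 0 to 2.11 CPM. The lowest *Thrb* counts among the newborn clusters were in cluster 21 (*Rmst*, *Thsd7b*, *Eya4*), second in newborn markers at 4804 CPM, with 0 and 1 *Thrb* UMIs.

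In shares of cells thinned to 3000 UMIs the same pattern stood out. A *Thra* UMI was in 25.5% and 31.9% of cluster 6 cells and in 88.0% and 87.9% of cluster 3 cells. A *Thrb* UMI was in 15.5% and 14.5% of cluster 6 cells and in 2 of 502 and 0 of 422 cluster 3 cells. The 0 allows up to 0.902% of cells with a UMI at this depth (Wilson interval), which sets no limit on cells that express the gene.

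*Crym*, encoding the cytosolic triiodothyronine-binding protein, was highest among the 9 neuron clusters in the 3 with the highest *Thra* levels. Cluster 18 (*Gm32647*, *Slit3*, *Zfp385b*) had 235 and 218 CPM. Cluster 4 (*Kctd8*, *Opcml*, *Pcsk2*) had 43.0 and 42.9 CPM and cluster 3 had 22.0 and 25.6. The other 6 clusters had from 0 to 2.83 CPM. At 3000 UMIs per cell, 31.3% and 21.8% of cluster 18 cells had a *Crym* UMI, against 7.26% and 7.2% in cluster 4.

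Of the projection neuron-like cells with a *Crym* UMI, 182 of 184 in replicate 1 and 215 of 215 in replicate 3 also had a *Thra* UMI, against 89.9% and 85.6% of all projection neuron-like cells. Only 2 of the 184 and 4 of the 215 had a *Thrb* UMI, 1.09% and 1.86%, against 6.42% and 8.93% of all projection neuron-like cells. These are unthinned counts, given as a description.

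At the class level *Crym* was 19.4 and 21.2 CPM in projection neuron-like cells and under 1 CPM in RGC-like, IPC-like and MGE interneuron-like cells. In RGC-like cells of replicate 1, a single cell held 7 of the 8 UMIs. The difference was 4.64 ± 0.34 (log2, adjusted p = 2.1e-08) from RGC-like, or 3.25 with doublets kept, and 4.41 ± 0.38 (adjusted p = 2.9e-07) from IPC-like cells. MGE interneuron-like cells had 2 UMIs, 30.4 times lower by CPM with a counting interval from 8.40 to 251 (adjusted p = 7.3e-05). Cajal-Retzius-like cells had none in either replicate, at least 5.62-fold lower than projection neuron-like cells with a floor of 3 UMIs in each library (adjusted p = 9.2e-05).

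Another class with *Crym* was meningeal-like, the fibroblasts of the brain's covering, at 19.9 and 50.2 CPM from 14 and 85 UMIs. It was 5.40 ± 0.38 above RGC-like cells (adjusted p = 3.1e-08), or 6.04 without replicate 1, 4.13 without replicate 3 and 4.27 with doublets kept. Summed projection neuron markers there were 173 and 82.1 CPM, against 3509 and 3255 in projection neuron-like cells, and their part in the *Crym* level was not tested. The *Crym* UMIs came from 20% and 24.1% of the unthinned cells. Microglia-like cells had 9.39 and 8.22 CPM of *Crym* from 2 and 4 UMIs, and erythroid-like cells 6.43 and 1.83 from 2 and 1 UMIs.

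*Slco1c1*, the thyroxine transporter gene, was led by endothelial-like cells, the lining of the vessels, with 231 CPM in replicate 1 and 151 in replicate 3. All other named classes were at or below 16.5 CPM, so the endothelial-like sums stood far above those. The unnamed cluster 15, led by *Ttr*, had 5.07 CPM in replicate 1 and 59.0 in replicate 3. Its 2 and 128 UMIs compare with 125 and 121 in endothelial-like cells. The difference from RGC-like cells was 4.38 ± 0.64 (log2, adjusted p = 3.9e-05), or 5.33 without replicate 1. A UMI was found in 21 of 26 and 30 of 52 endothelial-like cells.

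RGC-like cells held as many *Slco1c1* UMIs as endothelial-like cells, 165 and 81 against 125 and 121, over many more cells, and here the replicates lay apart. Their levels were 16.5 CPM in replicate 1 and 3.86 in replicate 3, and those of IPC-like cells 9.20 and 0.897. Replicate 1 was higher in each of the 4 RGC-like and both IPC-like clusters, with 24.0 and 7.24 CPM in cluster 5 and 14.5 and 3.32 in cluster 7 as the highest pairs. The share of unthinned RGC-like cells with a UMI was 12.3% and 2.71%, with no more than 8 UMIs in a cell, so the UMIs were spread over 91 and 45 cells.

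**Figure D4:**
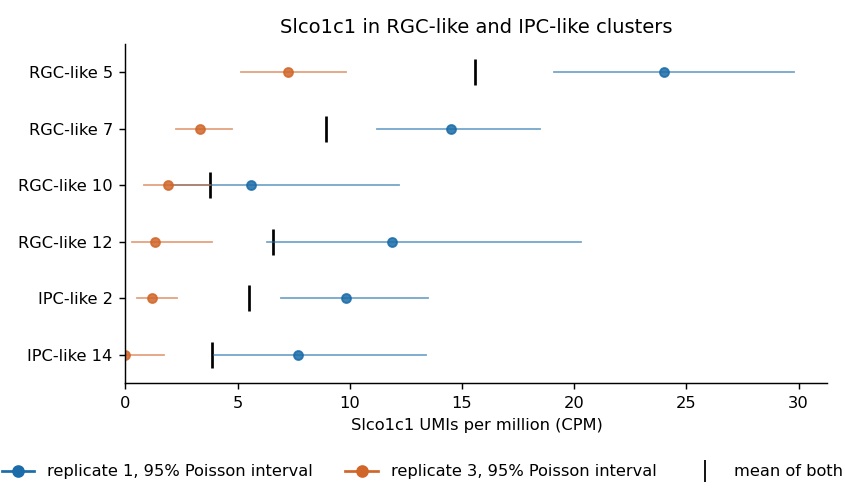
*Slco1c1* level (x axis, CPM) in the 4 RGC-like and 2 IPC-like clusters, with exact 95% Poisson intervals per replicate and the mean as a black mark. Replicate 1 lies above replicate 3 in all 6 clusters.

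The 8 endothelial markers summed to 8.41 CPM in RGC-like cells of replicate 1 and 10.9 in replicate 3, against 6979 and 5783 in endothelial-like cells. In RGC-like cells with a *Slco1c1* UMI they summed to 6.63 and 13.7 CPM from 9 and 10 UMIs, and in those without one to 8.69 and 10.8. When cells of non-vascular classes with UMIs of 2 or more endothelial markers were left out, an alternative chosen after seeing the data, endothelial-like cells were 4.38 above RGC-like cells (adjusted p = 4.0e-05). The part of endothelial RNA in the difference between replicates was not tested.

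*Slco1c1* was lower in projection neuron-like cells than in either progenitor class, at 0.206 and 0.358 CPM from 7 and 14 UMIs. The difference was -3.87 ± 0.66 from RGC-like cells (adjusted p = 1.0e-04) and -2.85 ± 0.74 from IPC-like cells (adjusted p = 0.0054). Both depended on the replicate, at -2.55 and -0.80 without replicate 1 and at -4.72 and -3.92 without replicate 3. IPC-like and RGC-like cells did not differ with a call (-1.02 ± 0.68, adjusted p = 0.29), but did without the filter on low counts (-1.03, adjusted p = 0.0031), and the value was -1.76 without replicate 1. In meningeal-like cells there was 1 UMI, 19.0 times lower than RGC-like cells by CPM with a counting interval from 3.38 to 754 (adjusted p = 0.088, and 0.036 with the replicate as a block).

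The deiodinases were close to the limit of detection. *Dio2*, which makes the active hormone, gave 18 UMIs in RGC-like cells of replicate 1 and 32 in replicate 3, or 1.80 and 1.52 CPM. Projection neuron-like cells gave 2 and 2, and no other named class gave any. IPC-like cells, with 0 UMIs, were at least 3.20-fold lower than RGC-like cells by the floor of 3 UMIs in each library, and projection neuron-like cells were 29.4 times lower with a counting interval from 10.8 to 112. In endothelial-like and pericyte-like cells the depth could not show a level like that of RGC-like cells, since 3 UMIs correspond to 5.55 and 3.75 CPM in endothelial-like cells. *Dio2* UMIs were in all 4 RGC-like clusters, from 0.362 to 3.34 CPM.

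*Dio3*, which inactivates the hormone, gave 16 UMIs in replicate 1 and 3 in replicate 3. Of these, 4 were in RGC-like cells, 3 in projection neuron-like, 1 in IPC-like and 1 in meningeal-like cells, and the others in the unnamed clusters. No level could be ordered from such counts. *Dio3os*, its antisense neighbour, gave 6 UMIs in RGC-like cells, all of them in replicate 1.

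Likeness of pattern was ranked by Pearson's r of log2(CPM + 1) over the 20 class sums, which share libraries and base composition, and is given as a description. *Thra* was most like *Tubb2a* (r = 0.93), *Gng2* (0.93) and *Apba1* (0.91). *Thrb* was most like *Mex3b* (0.87), *Shf* (0.85) and *Ube2h* (0.83), and *Crym* like *Crabp1* (0.84), *Necab1* (0.73) and *Kcna1* (0.68). *Slco1c1* was most like *Scarf1* (0.89), *Ccdc141* (0.88) and *Mapk12* (0.88). For *Dio2*, sparse genes with UMIs in RGC-like sums alone came out at 1, which says no more than that its own UMIs were there.

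A list of 32 other genes of the pathway gave 23 tested. Between IPC-like and RGC-like cells, 3 were higher and 4 lower (30.4% called, median log2 difference 0.05 against -0.02 over all genes). From IPC-like to projection neuron-like cells 4 were higher and 3 lower (median 0.04 against 0.05), and from RGC-like to projection neuron-like cells 3 and 4 (0.15 against 0.06). MGE interneuron-like cells had 5 higher and 2 lower than projection neuron-like cells (-0.12 against -0.05), and Cajal-Retzius-like cells 5 and 5 (0.04 against -0.13). Against RGC-like cells, 8 were higher and 6 lower in endothelial-like (-0.30 against -0.11), 7 and 6 in meningeal-like (-0.13 against -0.02) and 5 and 3 in pericyte-like cells (-0.23 against -0.11). The shares called lay both below and above those of all genes, given here in brackets. The share was 30.4% in IPC-like against RGC-like cells (31.1%). It was also 30.4% for projection neuron-like against IPC-like (40.9%) and RGC-like cells (56.2%), and for MGE interneuron-like cells (28.8%). It was 43.5% in Cajal-Retzius-like (20.6%), 60.9% in endothelial-like (42.6%), 56.5% in meningeal-like (46.5%) and 34.8% in pericyte-like cells (37.7%).

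Among the transport genes, *Slc7a5* and *Slc3a2*, the light and heavy chains of the amino acid exchanger LAT1, were highest in endothelial-like cells. *Slc7a5* was 777 and 634 CPM there and 10.9 and 9.47 in RGC-like cells, a difference of 6.20 ± 0.26 (adjusted p = 5.9e-12). *Slc3a2* was 905 and 792 CPM, 4.44 ± 0.27 above RGC-like cells (adjusted p = 4.4e-10), and *Slc7a8* 53.7 and 86.2 CPM, 6.52 ± 0.43 above (adjusted p = 3.0e-09). *Slc16a10*, a triiodothyronine carrier, had no UMI in endothelial-like cells and had its highest level in the class called microglia-like, led by macrophage genes, at 51.6 and 63.7 CPM. *Slc7a8* was also 4.04 ± 0.38 higher in projection neuron-like than in RGC-like cells (adjusted p = 9.0e-08), and *Slco1a4* gave at most 10 UMIs in a sum.

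**Figure D5:**
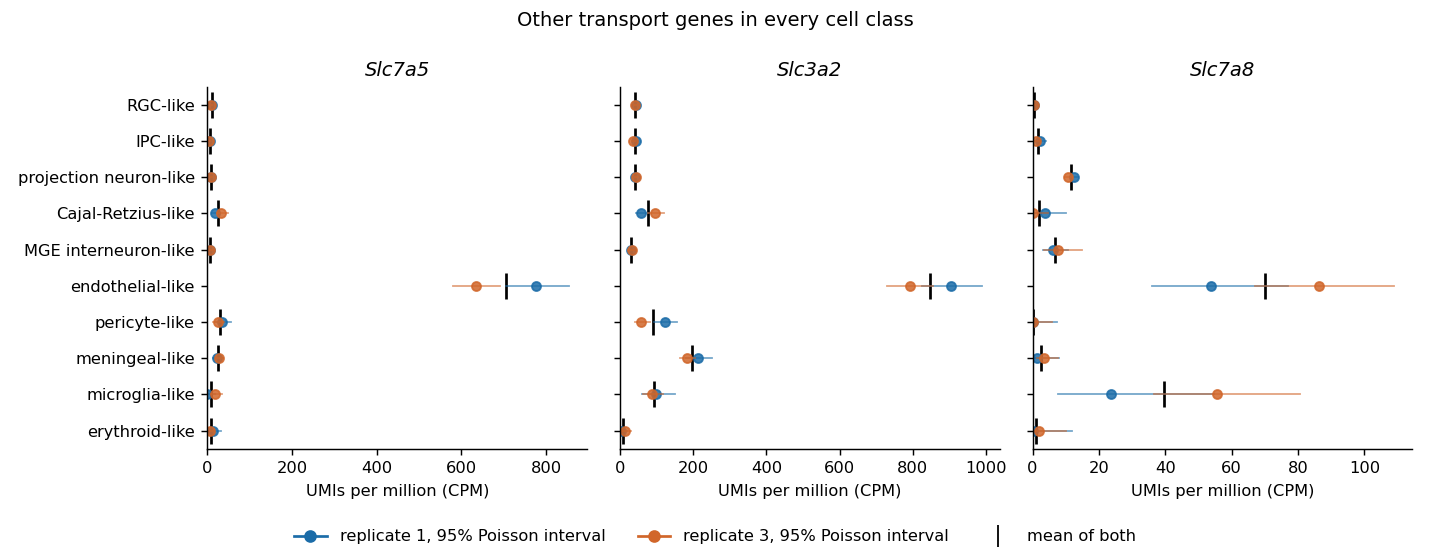
Levels of the transport genes *Slc7a5*, *Slc3a2* and *Slc7a8* (x axis, CPM) in 10 cell classes, replicates with exact 95% Poisson intervals and their mean. All 3 have their highest mean in endothelial-like cells, and for *Slc7a8* the replicates overlap those of microglia-like cells (23.5 and 55.5 CPM).

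*Ttr*, the thyroxine-binding protein of choroid plexus, split by replicate in every named class. It was from 0 to 3.22 CPM in replicate 1 and from 20.6 to 1331 CPM in replicate 3. Replicate 3 held 170 cells of an unnamed cluster led by *Ttr* and replicate 1 held 31. No *Ttr* difference passed without the block, and with the block 3 class comparisons did.

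*Rxra*, a retinoid X receptor, was 1.27 and 1.72 CPM in projection neuron-like cells. There it was 1.01 ± 0.27 below RGC-like cells (adjusted p = 0.0047) and 1.36 ± 0.29 below IPC-like cells (adjusted p = 0.0013). *Rxrb* passed in none of the 8 comparisons. Of the 2 retinoid X receptor genes tested, 1 was higher in MGE interneuron-like and in Cajal-Retzius-like than in projection neuron-like cells. Of all genes, 11.9% and 9.02% were higher there. Likewise, 1 was higher in endothelial-like, meningeal-like and pericyte-like than in RGC-like cells, where 21.0%, 24.5% and 19.3% of all genes were. In meningeal-like cells the gene was *Rxra*, with an adjusted p of 0.055 without the filter on low counts. *Tbl1xr1*, a subunit of the corepressor complex, was lower in IPC-like than in RGC-like cells by 1.26 ± 0.16 (43.0 and 41.3 CPM, adjusted p = 1.5e-05), as was *Tbl1x* by 0.70 ± 0.17 (adjusted p = 0.0049, and 0.14 with doublets kept). Of the 6 corepressor complex genes tested, these 2 were lower in IPC-like cells and 1 was higher. Of all genes, 17.4% were lower and 13.7% higher there. Of the 4 coactivator genes tested, only *Ncoa1* was called, 0.90 ± 0.19 higher in IPC-like than in RGC-like cells (adjusted p = 0.0019). Compared with projection neuron-like cells, MGE interneuron-like cells were higher in 3 of the 4 coactivator genes, where 11.9% of all genes were higher, *Ncoa1* by 0.70 ± 0.20 (adjusted p = 0.013, and 0.057 without the filter on low counts), *Ncoa2* by 0.88 ± 0.19 (0.0023) and *Ncoa3* by 1.32 ± 0.25 (9.7e-04). *Med1*, the other one, gave 0.14 ± 0.18 (adjusted p = 0.61).

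Genes known to respond to the hormone did not move as 1 group. Of 8, 4 passed the filter on low counts. *Camk4*, a calcium-dependent kinase, was 105 and 107 CPM in projection neuron-like cells, 4.54 ± 0.30 above RGC-like cells (adjusted p = 6.1e-10). MGE interneuron-like cells were 2.87 ± 0.34 below them (adjusted p = 6.3e-06). *Klf9*, a zinc finger factor, was highest in meningeal-like cells at 17.0 and 14.2 CPM, 2.10 ± 0.39 above RGC-like cells (adjusted p = 3.9e-04), and was 0.82 ± 0.31 lower in projection neuron-like than in RGC-like cells (adjusted p = 0.033, and 0.053 without the filter on low counts). *Thrsp* was highest in Cajal-Retzius-like cells at 17.5 and 35.3 CPM, 3.36 ± 0.41 above projection neuron-like cells (adjusted p = 3.9e-05). *Mbp*, a myelin gene, was at or below 13.2 CPM in the neural classes. It was lower than in RGC-like cells in endothelial-like, meningeal-like and pericyte-like cells at 1, 6 and 1 UMIs, calls that DESeq2 did not make (adjusted p from 0.055 to 0.082).

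Of the remaining list, *Secisbp2*, needed to make selenoproteins such as the deiodinases, passed in none of the 8 class comparisons and *Dio1* gave 1 UMI. *Med1* was lower in meningeal-like than in RGC-like cells (-0.59 ± 0.21, adjusted p = 0.027, and 0.053 with doublets kept) and in Cajal-Retzius-like than in projection neuron-like cells (-0.65 ± 0.21, adjusted p = 0.035, and 0.26 with library sizes only). *Hdac3* was lower in endothelial-like than in RGC-like cells (-0.86 ± 0.23, adjusted p = 0.0055). Among the projection neuron-like clusters, 16 of the 25 genes of the list that were tested there differed, 64.0% against 56.8% of all genes, among them *Camk4* (adjusted p = 1.2e-08).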

How the data were processed

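Single-cell suspensions of 2 WT samples at E14.5 were profiled by 10x Genomics 3' v3.1 libraries, and the deposited values are raw UMI counts per gene and barcode, made by the authors with Cell Ranger 7.0.0 on mm10 per the labels. The annotation, intron setting and cell calling are not given in the sources used here. The 6 genes, the pathway list and the tests were chosen with earlier results of these data known.

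Barcodes with 1500 to 60000 UMIs and at most 10% mitochondrial UMIs were kept. Doublets were predicted from simulated pairs, at a rate that grew with the number of barcodes, and 269 and 531 barcodes were removed. Cells were clustered (2000 variable genes without the genes described, 30 components, 15 neighbours, Leiden resolution 1.0, leidenalg 0.10.2) and a cluster was named when at least 3 markers of a list were on, each in 10% of cells and over 0.5 on the scaled level. Both unnamed clusters met this count for several lists, but cluster 11 was led by a gene of the CGE interneuron list and cluster 15 had more choroid plexus genes among its 10 leading genes than genes of its best list.

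Raw UMIs were summed per class and replicate for sums of at least 20 cells and tested with edgeR 4.0.16 (quasi-likelihood, TMM, filterByExpr, prior count of 2), all classes in 1 fit, two-sided, with Benjamini-Hochberg adjustment. Each SE was derived from the test, as the absolute log2 fold difference over the square root of the F statistic. The fit was tested on simulated data. Intervals are exact Poisson for sums and Wilson for shares, at 95%, and cover counting error only. The floor was 3 UMIs in each library. Since sums of 1 replicate come from 1 library, the replicate number pairs them, and deviations of same-numbered sums correlated at -0.02 to 0.34 over 45 class pairs (median 0.06). The fit without the block was reported, with the block, DESeq2 1.42.0, other filters, cell filters and resolutions and leaving out a replicate as alternatives. Named genes were the 6 genes, pathway genes past the threshold in at least 1 comparison with the same direction in both replicates, and the 3 genes most like each. Promoters and positions came from RefSeq (GRCm38.p6), and windows for *Thra* and *Crym* were not used here. Some genes of the pathway list are counted in it but not reported here.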

Additional observations from a re-analysis of the deposited data

Results flagged for a closer look

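Cells outside the 10 named classes held UMIs of 5 of the 6 genes above the limit that a count of 0 allows, and these were in no comparison. Cluster 11, led by *Adarb2*, had 403 cells in replicate 1 and 29 in replicate 3. *Thra* was 257 CPM (624 UMIs) there in replicate 1 and 350.4 CPM (48 UMIs) in replicate 3. In replicate 1 *Thrb* was 11.1 CPM (27 UMIs) and *Dio3* 2.47 CPM (6 UMIs).

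Cluster 15, led by *Ttr* and *Rspo2*, had 31 cells in replicate 1 and 170 in replicate 3. *Thra* was 129 CPM (51 UMIs) and 107 CPM (232 UMIs), and *Thrb* 11.1 CPM (24 UMIs) in replicate 3. *Crym* was 58.3 CPM (23 UMIs) in replicate 1 and 1.85 CPM (4 UMIs) in replicate 3. *Slco1c1* was 59.0 CPM (128 UMIs) in replicate 3 and 5.07 CPM (2 UMIs) in replicate 1.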

How the results depend on the processing

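Of 337 values of the tests of *Thra*, *Thrb*, *Crym* and *Slco1c1* under alternatives, 312 kept direction and side of the threshold. Fitting only the 4 neural classes and the compared class raised the count of differing genes from 3831 to 5941 (IPC-like against RGC-like) and from 3544 to 5497 (MGE interneuron-like against projection neuron-like), with 15187 genes tested instead of 12322. The other 94 of 96 gene counts stayed within 1.5 times. Among the 6 genes signs turned only in comparisons without a call, and the cause was not tested. For *Thra* in Cajal-Retzius-like against projection neuron-like cells the values were 0.20 (no TMM), 0.08 (DESeq2), 0.03 (strict cell filter) and 0.09 (no cell filter). In MGE interneuron-like against projection neuron-like cells *Thra* gave -0.01 (strict cell filter, doublets kept, resolution 0.5) and -0.10 (no cell filter). *Thra* gave 0.20 in IPC-like against RGC-like cells at resolution 0.5 and from -0.33 to 0.05 in endothelial-like against RGC-like cells with 1 replicate left out. *Slco1c1* in pericyte-like against RGC-like cells gave -0.09 (strict cell filter) and from -0.01 to 1.04 with 1 replicate left out. Of the pathway genes, *Slc7a8* turned in meningeal-like against RGC-like cells, at -0.14 with doublets kept. With the replicate as a block, *Thra* (0.83, adjusted p = 0.04) and *Slco1c1* (adjusted p = 0.036) passed in meningeal-like against RGC-like cells, and the block changed no other call of the 6 genes. Library sizes without TMM moved the median of all genes by 0.28 (Cajal-Retzius-like against projection neuron-like, 1812 higher and 724 lower instead of 1111 and 1422), -0.21 (projection neuron-like against RGC-like, 2871 and 4171 instead of 3743 and 3178) and -0.17 (projection neuron-like against IPC-like, 2218 and 3091 instead of 2849 and 2186). DESeq2 gave 3914 higher and 1197 lower genes in MGE interneuron-like against projection neuron-like cells, instead of 1467 and 2077. Without a replicate there are no residual degrees of freedom, so those values carry no test, and under the strict cell filter endothelial-like cells of replicate 1 were too few for a sum. *Thrb* in MGE interneuron-like against projection neuron-like cells was from 1.66 to 1.99 at other resolutions and without the cell filter, and *Slco1c1* in projection neuron-like cells was -5.03 against RGC-like and -3.96 against IPC-like cells by DESeq2. *Dio3* was too sparse to order in any class, and *Dio2* could not be set against RGC-like cells where 3 UMIs exceed their level.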
